A study of Cucumis melo with 18 samples.

Results

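The expression of 8 melon genes that act on lycopene, carotene and xanthophylls was examined among the 22394 genes counted in fruits of 2 inbred lines. They were chosen by their function in the pathway, but with earlier results of these data known, so their directions are not independent evidence. They were 3 cyclases (LCYE, LCY1 and CCS), 4 carotene hydroxylases (2 CHYB genes, CYP97A3 and CYP97C1) and 1 violaxanthin de-epoxidase (VDE1). All 8 were found in the count table, and the symbols are those used in the study. The inbred lines were “B-6”, whose flesh turns from green to white, and “B-14”, whose flesh turns from green to orange. Fruits were taken at 10, 30 and 45 days after pollination (DAP) from greenhouse plants, 1 fruit from each plant, with 3 biological replicates in each of 6 groups. “1_6”, “3_6” and “4_6” are “B-6” at 10, 30 and 45 DAP, and “1_14”, “3_14” and “4_14” are “B-14” at the same stages. Each colour was represented by 1 line, so flesh colour and the other genetic differences between the lines cannot be told apart. According to the study fruit flesh was sampled, but blade is the tissue in the sample labels, and no marker of either tissue was among the genes examined.

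Lycopene is the branch point of the plant carotenoid pathway. Lycopene beta cyclase closes a beta ring at both ends and gives β-carotene, the orange pigment, whereas lycopene epsilon cyclase closes an epsilon ring at the other end and leads through α-carotene to lutein. The hydroxylases then turn carotenes into xanthophylls: CHYB works on the beta rings of β-carotene and gives zeaxanthin, and CYP97A3 and CYP97C1, as known from Arabidopsis, hydroxylate the beta and the epsilon ring of α-carotene. Lutein is a part of the light-harvesting complexes of green tissue, and β-carotene is stored in the chromoplasts of ripe orange fruits.

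Total counts per library lay between 20651703 and 22675606. Levels are given as CPM, counts divided by the TMM-corrected size of their library, and 3 counts in a library, taken as the floor, correspond to 0.122 to 0.158 CPM. These values are not divided by transcript length, so they compare a gene between groups and not 1 gene with another. In whole fruit tissue, fewer cells of a type and less RNA per cell cannot be told apart. A gene was called differentially expressed at a p-value of at most 0.05 in edgeR's quasi-likelihood F test with a fold change of at least 2, the threshold of the study, and the adjusted p-value over all genes tested is given beside it. Groups whose libraries do not overlap were common. Among 17437 genes kept by a filter on low counts, the share ran from 35.9% (“4_14” versus “4_6”) to 77.7% (“3_6” versus “1_6”).

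Of the 8 genes, some followed the fruit's age in both lines, some depended on the line, and some, such as CCS, did both. LCY1 and CYP97C1 rose from 10 to 45 DAP in both lines and CCS fell in both. LCYE, the gene of the α-carotene branch, took opposite courses from 30 to 45 DAP: it rose in “B-6” and fell in “B-14”, and at 45 DAP it was the only 1 of the 7 genes tested that was called between the lines. CYP97A3 and CCS were higher in “B-6” than in “B-14” at 10 DAP. VDE1 and the CHYB gene MELO3C006938.2 were not called in any of the 9 pairs of groups compared. The other CHYB gene, MELO3C005704.2, with few counts, was called in 2 of the 6 pairs in which it was tested, both in “B-14”.

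The number of calls differed between comparisons. In “3_6” versus “1_6”, 4 of the 8 genes were called, 1 higher and 3 lower, where 42.7% of all genes tested were called, 17.6% higher and 25.1% lower. In “4_6” versus “1_6” 4 of the 7 tested were called, 2 in each direction, beside 48.1% of all genes (19.7% higher and 28.4% lower). In “4_6” versus “3_6” 1 of 7 was called, upward, beside 27.8% of all genes (12.4% upward). In “B-14”, 5 of 8 were called at 30 against 10 DAP, 3 higher and 2 lower, beside 42.7% of all genes (19% higher and 23.7% lower). From 10 to 45 DAP it was 4 of 8, 2 in each direction, beside 45.6% of all genes (19.7% higher and 25.9% lower), and from 30 to 45 DAP 1 of 8, downward, beside 20% of all genes (11.9% downward). Between the lines, 3 of 8 were called at 10 DAP, all lower in “B-14”, beside 27.2% of all genes (14.4% lower). None of the 8 was called at 30 DAP, where 7.03% of all genes were. At 45 DAP 1 of 7 was called, lower in “B-14”, beside 11.4% of all genes (5.43% lower). In “3_14” versus “3_6” edgeR gave 3 of the 8 genes an unadjusted p-value under 0.05 without the fold change, and DESeq2 called 0 as well. The shares of the 8 genes were near those of all genes in most comparisons, and the paragraphs that follow concern which genes moved and when.

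**Figure D1:**
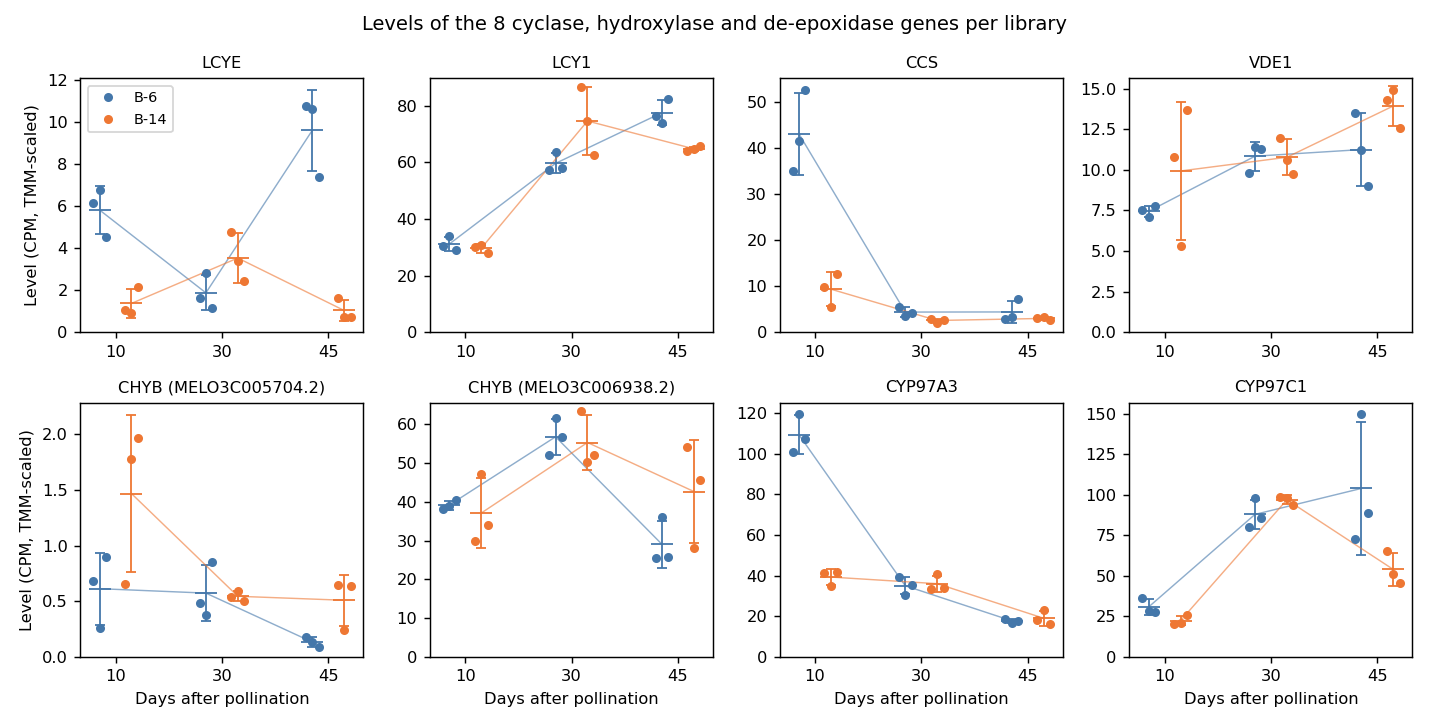
Level of each of the 8 genes (CPM, TMM-scaled) in each library against days after pollination (stages evenly spaced), with “B-6” in blue and “B-14” in orange; points are libraries, and bars are the mean ± SD of 3. LCYE ended at 7.38 to 10.8 CPM in “4_6” and at 0.725 to 1.63 CPM in “4_14”, and CYP97A3 and CCS had their highest libraries in “1_6”.

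LCYE (MELO3C004633.2) encodes lycopene epsilon cyclase, the entry to the α-carotene branch. In “B-6” its levels were 6.14, 6.77 and 4.53 CPM in the 3 libraries of “1_6”, 1.64, 2.80 and 1.17 CPM in “3_6”, and 10.8, 10.6 and 7.38 CPM in “4_6”. The 3 stages of “B-6” did not overlap, with the lowest values at 30 DAP and the highest at 45 DAP. In “B-14” the levels were 1.03, 0.912 and 2.16 CPM in “1_14”, 4.76, 3.40 and 2.43 CPM in “3_14”, and 1.63, 0.734 and 0.725 CPM in “4_14”. Here the middle stage was the highest and did not overlap the others, while the libraries of 10 and 45 DAP overlapped each other. These are low levels, with 16 to 243 counts in a library.

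From 10 to 30 DAP, LCYE fell 3.13-fold in “B-6” (log2 fold change −1.65 ± 0.33 SE, adjusted p = 0.0023) and rose 2.68-fold in “B-14” (1.42 ± 0.43, adjusted p = 0.0215). From 30 to 45 DAP it rose 5.26-fold in “B-6” (2.40 ± 0.33, adjusted p = 0.000838) and fell 3.39-fold in “B-14” (−1.76 ± 0.42, adjusted p = 0.0126). The lines therefore moved in opposite directions over both intervals, and the difference between them was tested as a line by stage interaction. It was 3.03 ± 0.58 on the log2 scale for 30 against 10 DAP (adjusted p = 0.00175) and −4.12 ± 0.56 for 45 against 30 DAP (adjusted p = 0.00133). An interaction was called when its adjusted p-value did not exceed 0.05 and its log2 value reached 1 in either direction. For 30 against 10 DAP, 3 of the 8 genes were called, all upward, where 21.8% of all genes were called and 11.6% upward. For 45 against 30 DAP, 2 of the 8 were called, both downward, where 7.76% of all genes were called and 4.38% downward. From 10 to 45 DAP the interaction was not called (−1.13 ± 0.54, adjusted p = 0.125), although it was without replicate 1 of “4_14” (−1.62, adjusted p = 0.0356).

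Between the lines, LCYE was lower in “1_14” than in “1_6” by 4.29-fold (log2 −2.10 ± 0.37, adjusted p = 0.00229) and lower in “4_14” than in “4_6” by 9.34-fold (−3.22 ± 0.36, adjusted p = 0.00277). All 3 libraries of “B-14” lay below all 3 of “B-6” at these stages. At 30 DAP the order was the other way and the libraries overlapped (0.92 ± 0.39, adjusted p = 0.139). That difference passed the fold change and the unadjusted p-value without replicate 2 of “3_6” (1.33, adjusted p = 0.0761) or replicate 3 of “3_14” (1.13, adjusted p = 0.0587). Over the 6 groups the order from low to high was “4_14”, “1_14”, “3_6”, “3_14”, “1_6” and “4_6”, and of the 5 neighbouring pairs in this order only “1_6” and “4_6” did not overlap.

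LCY1 (MELO3C020744.2) encodes lycopene beta cyclase, the enzyme that makes β-carotene. Its levels were 30.4, 34.0 and 28.9 CPM in “1_6”, 57.3, 63.7 and 58.0 CPM in “3_6”, and 76.3, 74.0 and 82.4 CPM in “4_6”. In “B-14” they were 30.1, 30.9 and 27.8 CPM in “1_14”, 86.7, 74.6 and 62.6 CPM in “3_14”, and 64.1, 64.7 and 65.6 CPM in “4_14”. The 10 DAP groups of both lines lay below every later library, and the stages of “B-6” climbed without overlap, while “3_14” and “4_14” overlapped.

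LCY1 rose 2.63-fold in “3_14” versus “1_14” (log2 1.39 ± 0.14, adjusted p = 0.000147), 2.30-fold in “4_14” versus “1_14” (1.20 ± 0.09, adjusted p = 2.29e-05) and 2.49-fold in “4_6” versus “1_6” (1.32 ± 0.12, adjusted p = 3.94e-05). In “3_6” versus “1_6” the log2 difference was 0.93 ± 0.09 (adjusted p = 4.42e-05), below the required fold change, which it passed when library size alone was used for scaling (1.08). That scaling also moved the median of all genes by 0.15 in this comparison. Between the lines LCY1 differed by −0.09 ± 0.12 on the log2 scale at 10 DAP (adjusted p = 0.575), 0.33 ± 0.12 at 30 DAP (adjusted p = 0.106) and −0.27 ± 0.09 at 45 DAP (adjusted p = 0.0791), none of them called. The interaction for 45 against 30 DAP had an adjusted p of 0.0256 at a log2 value of −0.58 ± 0.15, under the size required for a call. At 45 DAP all 3 libraries of the orange line lay below those of the white line, where 35.9% of all genes kept by the filter on low counts did not overlap.

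CCS (MELO3C017963.2) is annotated in the study as capsanthin/capsorubin synthase, which in pepper makes the red ketocarotenoids from epoxy-xanthophylls and is related to lycopene beta cyclase. Its levels were 35.0, 41.5 and 52.5 CPM in “1_6”, 5.51, 3.51 and 4.05 CPM in “3_6”, and 2.87, 3.19 and 7.09 CPM in “4_6”. In “B-14” they were 9.84, 5.43 and 12.7 CPM in “1_14”, 2.85, 2.04 and 2.70 CPM in “3_14”, and 3.05, 3.26 and 2.63 CPM in “4_14”. The group “1_6” stood above all others, with its lowest library at 35.0 CPM and the highest library of any other group at 12.7 CPM, and replicate 3 of “4_6” was the highest after 10 DAP.

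CCS fell 9.93-fold in “3_6” versus “1_6” (log2 −3.31 ± 0.21, adjusted p = 4.22e-06) and 9.74-fold in “4_6” versus “1_6” (−3.28 ± 0.36, adjusted p = 9.37e-05). In “B-14” it fell 3.54-fold by 30 DAP (−1.82 ± 0.34, adjusted p = 0.00268) and 2.97-fold by 45 DAP (−1.57 ± 0.32, adjusted p = 0.00364). It was 4.66-fold lower in “1_14” than in “1_6” (−2.22 ± 0.30, adjusted p = 0.000681). The smaller fall in “B-14” was called as an interaction for 30 against 10 DAP (1.46 ± 0.42, adjusted p = 0.0174) and for 45 against 10 DAP (1.65 ± 0.51, adjusted p = 0.0252), where 2 of the 8 genes were called, both upward, and of all genes 24% were called and 11.9% upward. The interaction at 45 DAP was lost without replicate 3 of “1_6” (1.48, adjusted p = 0.0613), replicate 2 of “4_6” (1.46, adjusted p = 0.0631) or replicate 2 of “4_14” (1.62, adjusted p = 0.0501). At 30 DAP the lines differed by −0.78 ± 0.23 (adjusted p = 0.0595) and at 45 DAP by −0.56 ± 0.37 (adjusted p = 0.325). The value at 45 DAP was −0.03 without replicate 3 of “4_6”.

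The 2 CHYB genes encode β-carotene hydroxylases, which use up β-carotene to make zeaxanthin. MELO3C006938.2 had 38.2, 38.9 and 40.4 CPM in “1_6”, 52.2, 61.6 and 56.6 CPM in “3_6”, and 25.4, 36.0 and 25.7 CPM in “4_6”. In “B-14” it had 29.9, 47.3 and 34.1 CPM in “1_14”, 63.5, 50.3 and 52.2 CPM in “3_14”, and 54.3, 28.1 and 45.7 CPM in “4_14”. The middle stage was the highest in both lines, and all 5 neighbouring pairs in the order of the 6 groups overlapped.

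Its largest difference, “4_6” versus “3_6”, was −0.93 ± 0.16 on the log2 scale (adjusted p = 0.00204), short of the fold change, which was passed without replicate 2 of “4_6” (−1.11). Between the lines MELO3C006938.2 differed by −0.10 ± 0.17 at 10 DAP (adjusted p = 0.674), −0.03 ± 0.11 at 30 DAP (adjusted p = 0.864) and 0.54 ± 0.25 at 45 DAP (adjusted p = 0.180), none called.

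The other CHYB gene, MELO3C005704.2, was counted 2 to 41 times in a library. It had 14, 5 and 17 counts in “1_6”, 10, 8 and 19 in “3_6”, and 4, 3 and 2 in “4_6”. In “B-14” it had 14, 37 and 41 counts in “1_14”, 12, 14 and 11 in “3_14”, and 15, 6 and 14 in “4_14”. The libraries of “4_6” were the lowest of all, at 0.0844 to 0.182 CPM, and 2 of them were at or below the floor.

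In “B-14”, MELO3C005704.2 fell 2.57-fold by 30 DAP (log2 −1.36 ± 0.47, adjusted p = 0.0345) and 2.74-fold by 45 DAP (−1.45 ± 0.55, adjusted p = 0.0458). Of the 6 fits that left out a library, the call at 30 DAP was kept in 1, without replicate 1 of “1_14”, and the log2 values in the others were −1.43 to −1.09. The call at 45 DAP was kept in 2 of 6 fits and was lost without replicate 2 (−1.29) or 3 (−1.19) of “1_14” and without replicate 2 (−1.13) or 3 (−1.65) of “4_14”. In the comparisons with “4_6” the gene did not pass the filter on low counts. Without that filter it was lower in “4_6” than in “1_6” (−2.16 ± 0.68, adjusted p = 0.0210) and than in “3_6” (−2.03 ± 0.60, adjusted p = 0.0227), and the difference of “4_14” from “4_6” was 1.88 ± 0.65, past the threshold by the unadjusted p of 0.0186 but with an adjusted p of 0.0984. Summed over 3 libraries, 35 counts in “4_14” stood against 9 in “4_6”, a ratio per library size of 3.82 with an exact 95% interval of 1.80 to 9.03 that covers counting error only. In “1_14” versus “1_6” the difference of 1.23 ± 0.56 (adjusted p = 0.104) was not called, but it passed with library size alone (1.33), with all 18 libraries in 1 fit (1.25) and without replicate 3 of “1_6” (1.61) or replicate 1 of “1_14” (1.59). Its interaction for 45 against 30 DAP, 1.98 ± 0.69 (adjusted p = 0.0716), was called only without replicate 2 of “4_14” (2.31, adjusted p = 0.0339).

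CYP97A3 (MELO3C014945.2), the beta-ring hydroxylase of α-carotene, had 101, 119.8 and 108 CPM in the libraries of “1_6”, 39.1, 30.5 and 35.4 CPM in “3_6”, and 18.6, 16.8 and 17.8 CPM in “4_6”. In “B-14” it had 41.2, 34.7 and 41.9 CPM in “1_14”, 33.6, 40.6 and 33.9 CPM in “3_14”, and 18.02, 23.1 and 15.9 CPM in “4_14”. The libraries of “1_6” lay above all others, those of “1_14” overlapped both groups of 30 DAP, and the lines overlapped at 45 DAP.

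CYP97A3 fell 3.14-fold in “3_6” versus “1_6” (log2 −1.65 ± 0.11, adjusted p = 6.14e-06) and 6.16-fold in “4_6” versus “1_6” (−2.62 ± 0.13, adjusted p = 2.21e-06). In “B-14” the differences from 10 DAP were −0.07 ± 0.12 at 30 DAP (adjusted p = 0.653) and −0.97 ± 0.16 at 45 DAP (adjusted p = 0.00127), the latter just short of the fold change. It passed with DESeq2 (−1.01), with RLE factors (−1.01), when every library had to hold 10 counts or more (−1.05), with all 18 libraries in 1 fit (−1.05) and without replicate 2 of “1_14” (−1.06) or of “4_14” (−1.15). From 30 to 45 DAP the differences were −0.94 ± 0.12 in “B-6” and −0.91 ± 0.16 in “B-14”, and neither was called. The former was called without replicate 2 of “3_6” (−1.03) and the latter without replicate 2 of “4_14” (−1.09). Between the lines, CYP97A3 was 2.82-fold lower in “1_14” than in “1_6” (−1.49 ± 0.13, adjusted p = 8.37e-05), and the differences at 30 and 45 DAP were 0.05 ± 0.12 (adjusted p = 0.794) and 0.09 ± 0.16 (adjusted p = 0.721). The interactions were 1.55 ± 0.17 for 30 against 10 DAP (adjusted p = 5.62e-05) and 1.58 ± 0.20 for 45 against 10 DAP (adjusted p = 0.000155).

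CYP97C1 (MELO3C024495.2), the epsilon-ring hydroxylase that completes lutein, had 36.1, 28.3 and 27.8 CPM in “1_6”, 80.1, 97.8 and 85.7 CPM in “3_6”, and 72.6, 150.1 and 89.0 CPM in “4_6”. In “B-14” it had 20.2, 21.1 and 25.6 CPM in “1_14”, 98.8, 98.3 and 93.6 CPM in “3_14”, and 65.1, 51.3 and 45.5 CPM in “4_14”. All later libraries lay above those of 10 DAP in both lines. In “B-14” the libraries of 45 DAP lay between those of 10 and 30 DAP, and in “B-6” replicate 2 of “4_6” was far above the rest of its group.

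The rise of CYP97C1 from 10 DAP was 2.84-fold at 30 DAP (log2 1.51 ± 0.13, adjusted p = 1.89e-05) and 3.38-fold at 45 DAP in “B-6” (1.76 ± 0.27, adjusted p = 0.000565), and 4.53-fold (2.18 ± 0.12, adjusted p = 1.17e-05) and 2.54-fold (1.35 ± 0.16, adjusted p = 0.000227) in “B-14”. From 30 to 45 DAP the difference was 0.28 ± 0.26 in “B-6” (adjusted p = 0.375) and −0.83 ± 0.13 in “B-14” (adjusted p = 0.00228), neither past the fold change. The interaction of this interval was called at −1.08 ± 0.32 (adjusted p = 0.0397). It was called in 4 of the 12 fits that left out a library, with log2 values between −1.29 and −0.72, the smallest without replicate 2 of “4_6”. The calls remained without replicate 1 or 3 of “4_6”, replicate 3 of “3_14” or replicate 1 of “4_14”. At 45 DAP, CYP97C1 differed between the lines by −0.95 ± 0.27 (adjusted p = 0.0567). That difference was −0.60 without replicate 2 of “4_6” and passed the threshold without replicate 1 (−1.15) or 3 (−1.05) of “4_6” or replicate 1 of “4_14” (−1.10).

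VDE1 (MELO3C008677.2) encodes violaxanthin de-epoxidase, which turns violaxanthin back into zeaxanthin in strong light. Its levels were 7.50, 7.08 and 7.75 CPM in “1_6”, 9.81, 11.4 and 11.3 CPM in “3_6”, and 13.5, 11.2 and 8.99 CPM in “4_6”. In “B-14” they were 10.8, 5.33 and 13.7 CPM in “1_14”, 11.96, 10.6 and 9.75 CPM in “3_14”, and 14.3, 14.9 and 12.6 CPM in “4_14”. All 5 neighbouring pairs of groups overlapped, and the spread was widest in “1_14”. Its largest log2 difference was 0.59 ± 0.19, in “4_6” versus “1_6” (adjusted p = 0.0232), and between the lines the differences were 0.40 ± 0.32 at 10 DAP (adjusted p = 0.327), −0.0017 ± 0.12 at 30 DAP (adjusted p = 0.993) and 0.30 ± 0.18 at 45 DAP (adjusted p = 0.276).

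**Figure D2:**
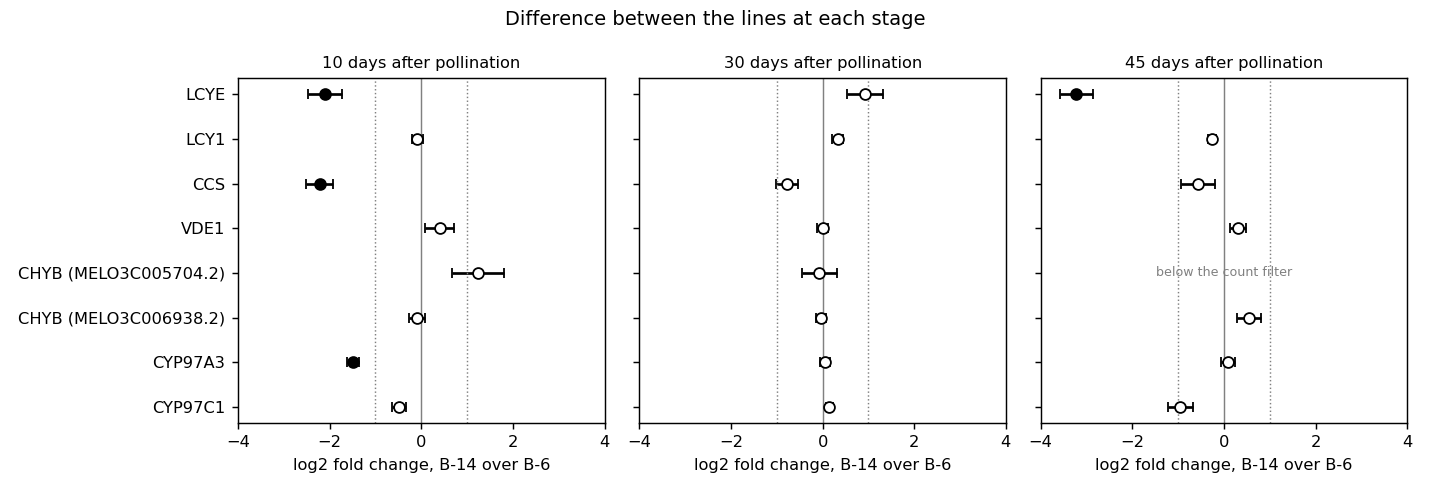
log2 fold change of “B-14” over “B-6” with its SE (bars) for each gene at 10, 30 and 45 days after pollination, from edgeR; filled points passed the threshold for a call, whose fold change of 2 is marked by dotted lines. LCYE, CCS and CYP97A3 were called at 10 DAP, none at 30 DAP and LCYE alone (−3.22) at 45 DAP, where 1 CHYB gene was below the count filter.

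LCYE was set against LCY1 as the ratio of their counts within each library, which does not depend on library size, and was compared between groups only. CCS, the gene related to lycopene beta cyclase, is not part of this ratio, and its mean was 43.0 CPM in “1_6” and 9.33 CPM in “1_14”. The ratio is therefore that of 2 genes and not of the whole branches. The geometric mean ratio was 18.5% in “1_6”, 2.98% in “3_6” and 12.2% in “4_6”, and 4.36% in “1_14”, 4.62% in “3_14” and 1.51% in “4_14”. The ratio was thus 4.25-fold higher in “B-6” at 10 DAP and 8.11-fold higher at 45 DAP, with no overlap between the lines at either stage, and 1.55-fold higher in “B-14” at 30 DAP, with overlap. Each of these stage comparisons has 3 libraries against 3, for which a two-sided exact permutation test cannot go below p = 0.1, and gave p = 0.1, 0.2 and 0.1 at 10, 30 and 45 DAP. Over the 3 stages, the mean difference of “B-14” minus “B-6” was −1.49 on the log2 scale (two-sided exact permutation within stages, p = 0.0105, adjusted over 3 ratios p = 0.0173). It was −1.19 (adjusted p = 0.155) without the stage of 10 DAP and −0.73 (adjusted p = 0.195) without that of 45 DAP.

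The ratio of the CHYB genes, MELO3C005704.2 to MELO3C006938.2, was 1.45%, 0.994% and 0.519% in “B-6” at 10, 30 and 45 DAP and 3.69%, 1.03% and 1.18% in “B-14”. The mean difference of “B-14” minus “B-6” was 0.86 on the log2 scale (two-sided exact permutation p = 0.0115, adjusted p = 0.0173), and it was 0.62 (adjusted p = 0.155) without 10 DAP and 0.69 (adjusted p = 0.188) without 45 DAP. This ratio rests on the few counts of MELO3C005704.2. The ratio of CYP97A3 to CYP97C1 was 358%, 39.8% and 17.9% in “B-6” at 10, 30 and 45 DAP and 177%, 37.1% and 35.3% in “B-14”. Its difference between the lines was −1.02 on the log2 scale at 10 DAP and 0.97 at 45 DAP, without overlap at either stage and each at the smallest exact permutation p of 0.1, and the mean over stages was −0.05 (two-sided exact permutation p = 0.859).

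**Figure D3:**
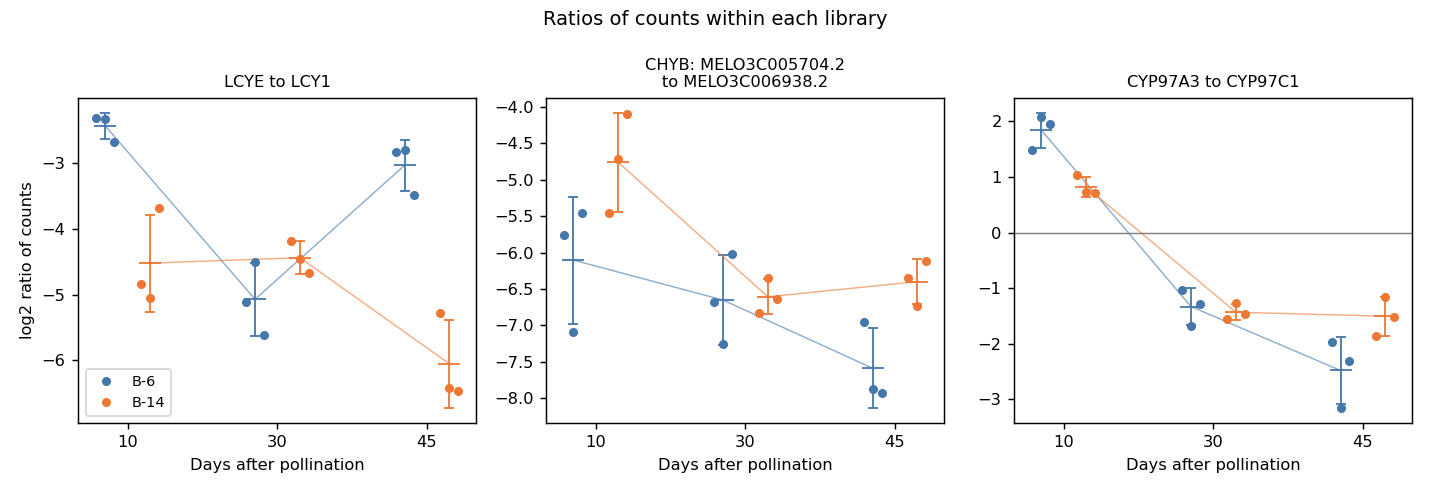
log2 ratio of counts of 2 genes within each library against days after pollination (stages evenly spaced), with “B-6” in blue and “B-14” in orange; points are libraries and bars the mean ± SD of 3. The LCYE to LCY1 ratio of the lines was apart at 10 DAP (18.5% against 4.36%) and 45 DAP (12.2% against 1.51%) and overlapped at 30 DAP.

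The other genes of the pathway were taken from lists that the study had chosen on these samples, so their directions are not independent evidence. Of 10 genes upstream of lycopene, from geranylgeranyl diphosphate synthase (GGPS) to carotenoid isomerase (CRTISO), 9 rose by 30 DAP in “B-14” and 7 in “B-6”, where 19% and 17.6% of all genes rose, and none fell in either line. By 45 DAP 9 were higher than at 10 DAP in “B-14” and 7 in “B-6”, beside 19.7% of all genes in each line. From 30 to 45 DAP none rose in either line, beside 8.1% of all genes in “B-14” and 12.4% in “B-6”. Over that interval 2 fell in “B-14” and 1 in “B-6”, beside 11.9% and 15.4% of all genes, so these counts were near the shares of all genes. The median log2 differences by 30 DAP were 1.997 and 1.17, beside medians of all genes of −0.0020 and 0.02. A gene of phytoene synthase, which commits carbon to carotenoids, PSY (MELO3C025102.2), rose by 5.47 ± 0.27 on the log2 scale in “B-14” (adjusted p = 7.99e-06) and by 2.13 ± 0.11 in “B-6” (adjusted p = 1.28e-06). The other PSY gene, MELO3C016185.2, had lower levels and another course. Its means were 2.90, 5.51 and 2.38 CPM in “B-14” at 10, 30 and 45 DAP, and 2.11, 5.58 and 4.59 CPM in “B-6”. Between the lines, 3 of the 10 were lower in “1_14” than in “1_6”, beside 14.4% of all genes, and none was called at 30 DAP, beside 7.03%. In “4_14” versus “4_6”, 9 of these 10 were not called and 1, GGPS, was lower (−1.01 ± 0.13, adjusted p = 0.00444), with a median of 0.01. Of all genes, 5.43% were lower there (median −0.01).

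Of 9 genes that cleave carotenoids or make abscisic acid and strigolactones, 5 were lower and 2 higher in “1_14” than in “1_6” (median −1.10), where 14.4% of all genes were lower and 12.8% higher (median 0.01). The 2 with the smallest p-values were CYP711A1 (−2.72 ± 0.21, adjusted p = 5.82e-05), of the strigolactone pathway, and NCED2 (MELO3C002744.2, −4.45 ± 0.39, adjusted p = 8.98e-05), of abscisic acid synthesis. This NCED2 gene had 83, 50 and 77 counts in “1_6” but 3, 4 and 3 in “1_14”. The latter are at or just above the floor, so the size of its difference is uncertain. In “4_14” versus “4_6”, 1 of the 8 tested was higher, the abscisic acid gene ABA2 (1.89 ± 0.22, adjusted p = 0.00350), and none was lower, where 5.92% of all genes were higher and 5.43% lower.

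Genes of chlorophyll synthesis were examined because lutein, the product of the branch that LCYE opens, accompanies chlorophyll in plastids. Of 12 such genes, 7 were lower in “4_14” than in “4_6” and none was higher (median −1.29), where 5.43% of all genes were lower (median −0.01). Among the 7 were PORA (MELO3C013592.2), a protochlorophyllide oxidoreductase (−1.78 ± 0.15, adjusted p = 0.00114), and CHLP (MELO3C017176.2), a geranylgeranyl reductase (−2.10 ± 0.27, adjusted p = 0.00443). For the interaction of 45 against 30 DAP, 6 of the 12 were lower and none higher (median −1.20), where 4.38% of all genes were lower (median 0.01). Their summed level was 829 ± 177 CPM (SD, n = 3) in “1_6”, 2078 ± 124 CPM in “3_6” and 3546 ± 815 CPM in “4_6”, and 545 ± 161 CPM in “1_14”, 2323 ± 435 CPM in “3_14” and 1368 ± 247 CPM in “4_14”. The sum is weighted to genes of high level: in “4_6” PORA (MELO3C016714.2), CRD1 and CHLH had means of 1059, 889 and 690 CPM. Not all of the 12 genes followed it. The highest group mean was in “1_6” for CHLM, in “3_6” for CHLG, in “1_14” for CHLD and DVR, and in “4_6” for the rest. In “B-6” the sum was higher at 30 than at 10 DAP, where LCYE was lower, and at 45 DAP both were higher than at 30 DAP. These are transcript levels, and the study reported similar contents of chlorophyll a and b in both lines at all stages. The part of green tissue in the LCYE result was not tested.

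The course of each gene over the 6 groups was compared with those of the other 38 listed genes by the root mean square difference of centred log2 group means, where 0 would be the same course. LCYE was nearest to PORA (MELO3C013592.2), at 0.53, the largest nearest distance of any of the genes examined. That gene had 6.53, 5.94 and 8.54 CPM in “1_6”, 1.74, 2.61 and 2.52 CPM in “3_6” and 17.5, 14.7 and 15.9 CPM in “4_6”. In “B-14” it had 5.06, 1.78 and 4.32 CPM in “1_14”, 7.87, 5.47 and 5.95 CPM in “3_14” and 5.42, 4.41 and 4.30 CPM in “4_14”. Both genes thus had their lowest “B-6” values at 30 DAP and their highest “B-14” values at the same stage. The interaction of PORA (MELO3C013592.2) for 45 against 30 DAP was −3.25 ± 0.27 (adjusted p = 0.000263). This gene was picked because its course lay nearest to that of LCYE, so its interaction is not independent evidence.

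**Figure D4:**
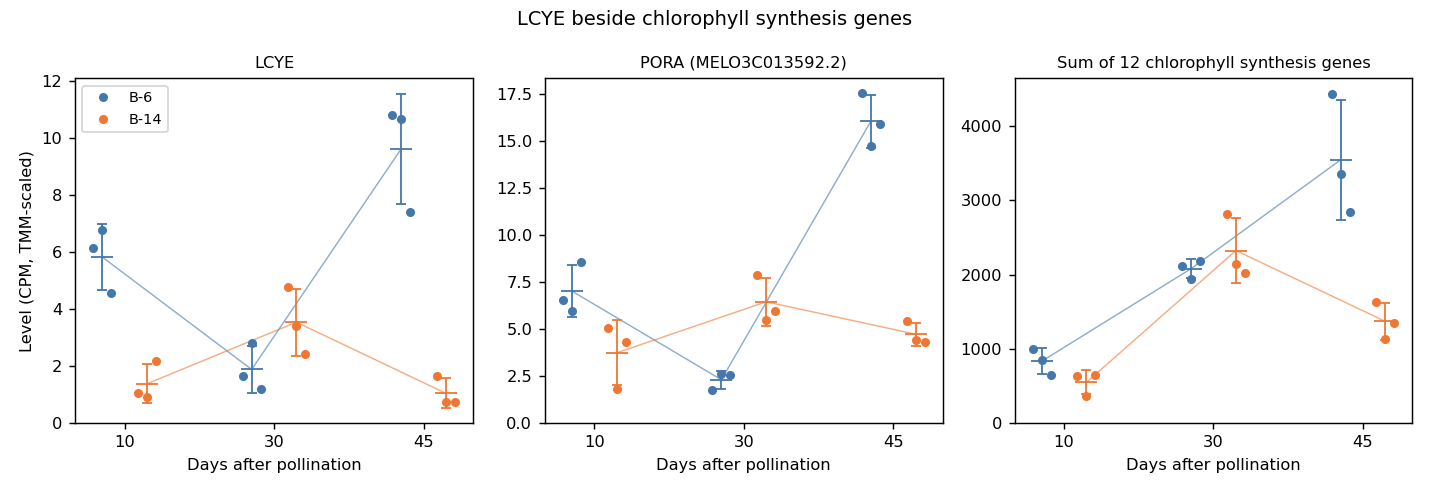
Level (CPM, TMM-scaled) of LCYE, of its nearest gene in course, PORA (MELO3C013592.2), and of the sum of 12 chlorophyll synthesis genes against days after pollination (stages evenly spaced), with “B-6” in blue and “B-14” in orange; points are libraries and bars the mean ± SD of 3. At 45 DAP all 3 panels show “B-6” above “B-14”, with summed levels of 3546 and 1368 CPM. The sum is weighted to its genes of high level.

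Among the other genes, LCY1 was nearest to the carotenoid isomerase gene CRTISO (MELO3C009571.2), at 0.21, and so was VDE1, at 0.36. CYP97C1 was nearest to the other PORA gene (MELO3C016714.2), at 0.21, and the CHYB gene MELO3C006938.2 to chlorophyll synthase (CHLG), at 0.33. CYP97A3 was nearest to the abscisic aldehyde oxidase gene AAO3, at 0.29, and CCS to the abscisic acid hydroxylase gene CYP707A2, at 0.46. The CHYB gene MELO3C005704.2, with its few counts, was nearest to CHLD, a subunit of magnesium chelatase, at 0.48. These distances are a description over 6 group means.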

How the data were processed

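RNA-seq libraries of 18 fruits were prepared with a stranded mRNA kit, according to the labels. The authors used Trimmomatic for trimming and HISAT2 for alignment to a melon reference genome, and deposited whole-number counts per gene, without normalization. The counting program, its strand setting, its treatment of reads that match related genes, the genome build and the versions are not given in the sources used here. Of the 22394 gene identifiers, 0 matched any of 28628 RefSeq genes, so positions and sequences are not given.

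Each pair of groups (6 libraries) was fitted with edgeR 4.0.16 in R 4.3.3, with TMM factors, filterByExpr and the quasi-likelihood F test, and p-values were adjusted by Benjamini-Hochberg over all genes tested. For each interaction of line and stage, 12 libraries were fitted. Ratios were log2 of counts plus 0.5 and were tested by exact permutation of the line labels within stages. Likeness used the mean, over the libraries of a group, of log2 of CPM plus 0.5. The 8 genes and the lists were chosen with earlier results of these data known. All 8 are named, with at most the 2 called genes of smallest p-value from each list in a comparison, and the gene nearest in course. Named beside these are the other PSY gene and the chlorophyll synthesis genes given with their summed level. The fits were tested on simulated data. One CHYB gene, MELO3C005704.2, did not pass the filter in comparisons with “4_6”.

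Replicates of a group differed in 27.7 to 64.7% of genes by more than binomial sampling at p = 0.05. Fruits came from separate plants. The deviations of libraries with the same number were correlated at −0.39 to 0.44, and only in “4_14” versus “3_14” was every pair over 0.1 (0.14, 0.31 and 0.44). The main fits, also of that comparison, used no pairs, and the sources do not say what libraries of the same number share. Alternatives were DESeq2 1.42.0, RLE factors, library size alone, no filter on low counts, a minimum of 10 counts per library, a joint fit of all 18 libraries, an adjusted p-value for calls, the replicate number as a block, a pseudocount of 5 for ratios, and leaving out each library or stage.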

Additional observations from a re-analysis of the deposited data

Results flagged for a closer look

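In 7 cases the change over time in “B-14” differed from that in “B-6” by a test of the difference itself (an interaction in edgeR over 12 libraries, called as in the report). For 30 against 10 DAP these were LCYE (3.03), CYP97A3 (1.55) and CCS (1.46), and for 45 against 10 DAP CYP97A3 (1.58) and CCS (1.65). For 45 against 30 DAP they were LCYE (−4.12) and CYP97C1 (−1.08). For CYP97A3 and CCS the positive values mean a smaller fall in “B-14”, which started lower at 10 DAP. For LCYE the groups moved in opposite directions, down then up in “B-6” and up then down in “B-14”. Over all genes tested, 21.8%, 24% and 7.76% met the same rule in the 3 interactions.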

How the results depend on the processing

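Over 1414 single values of the 8 genes under alternative settings, 1372 kept their direction and side of the threshold, 21 lost and 21 gained a call, and 0 called values changed sign, while 33 uncalled values did. The number of genes called rose from 1 to 2 without a filter on low counts and with all 18 libraries in 1 fit, in “4_6” versus “3_6” (2 and 2) and in “4_14” versus “4_6” (2 and 2). The added gene was the CHYB gene MELO3C005704.2, which did not pass the filter in the main fits of these comparisons. It was also called in some fits that left out a library, and so adds to the upper counts of both comparisons below. Leaving out each library gave 1 to 3 calls in “4_6” versus “3_6”, 1 to 2 in “4_14” versus “3_14”, 0 to 1 in “3_14” versus “3_6”, 1 to 3 in “4_14” versus “4_6”, 1 to 3 for the interaction of 45 against 10 DAP and 1 to 2 for that of 45 against 30 DAP. The ratio differences ranged from −1.63 to −1.40 for LCYE to LCY1 and from 0.69 to 0.98 for the CHYB genes, with adjusted p-values up to 0.0428, and from −0.16 to 0.04 for CYP97A3 to CYP97C1. Without 10 DAP they were −1.19 and 0.62, and without 45 DAP −0.73 and 0.69, for the LCYE and CHYB ratios, none past the threshold.

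With the replicate number as a block, the ratio differences of −1.49 and 0.86 had an adjusted exact permutation p of 0.0586 each, and the CHYB gene MELO3C005704.2 lost its call in “4_14” versus “1_14” (−1.40, p = 0.0712). In “4_14” versus “3_14”, where the correlation of every same-number pair was over 0.1, LCYE kept its call with the block (−1.80, adjusted p = 0.00414). No other call of the 8 genes changed with the block. In 0 comparisons did every library correlate best with its own number. Depth limits LCYE, at 16 counts in its lowest library, and MELO3C005704.2, at 2.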
